A study of Mus musculus with 8 samples.

Results

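Laminins are large secreted glycoproteins of the basement membrane, the thin sheet of matrix that underlies epithelia and surrounds smooth muscle, vessels and nerves. Each laminin is a trimer of an alpha, a beta and a gamma chain encoded by separate genes. The alpha chain carries the globular end that binds integrins and dystroglycan on cells, and the short arms polymerise into a network to which nidogens, perlecan, agrin and type IV collagen attach. In the gut wall, epithelium and mesenchyme each make some of the chains of the basement membrane between them. The genes examined were the 9 laminin chains Lama1, Lama2, Lama3, Lama4, Lama5, Lamb1, Lamb2, Lamb3 and Lamc1, chosen by gene name among the 26747 assembled loci of the study. Of these chains, 8 had a locus of their own, and Lamb2 shared a joined locus with its neighbour Usp19, which encodes a deubiquitinase. All 9 passed the filter on low counts that left 14574 loci for testing. Lamc3, a further laminin gene, is given beside them as context.

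RNA came from whole stomachs of E13.5 mouse embryos: 4 libraries were of wild type and 4 of the genotype Nkx3.2Cre;R26-YAP5SA, called YAP5SA here. In YAP5SA embryos, Cre is made where Nkx3-2 is expressed, in the mesenchyme of the stomach, and turns on from the Rosa26 locus a YAP protein that the Hippo kinases cannot switch off. The series has no Cre-only group, so Cre itself and active YAP cannot be told apart as the source of a difference, and the labels do not say whether a library is 1 embryo or a pool. The p-values therefore measure the spread between these libraries, which may be technical. The comparison asks how YAP activity in the mesenchyme changes gene expression in the stomach. Libraries held 6328344 to 6919353 fragments in wild type and 7293556 to 8513116 in YAP5SA. The tissue label was met by its markers: Barx1, a transcription factor of stomach mesenchyme, stood at 171 ± 7.64 CPM in wild type against 158 ± 14.2 CPM in YAP5SA (SD, n = 4), where CPM is the fragment count scaled by library size. Levels of different genes are compared below as FPKM, which also divides by transcript length. The ratios of chains are the exception and use CPM.

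The cell composition of the tissue differed between the genotypes, or the RNA that each cell type gave did, and in whole stomachs these cannot be told apart. Markers are counted here as higher or lower, and said to be called, where the edgeR adjusted p was under 0.05. Over all tested loci 9.06% were called higher and 9.85% lower. Of 19 epithelial markers 19 fell and none rose, and their summed level ran from 1643 to 1944 CPM in wild type and from 856 to 1212 in YAP5SA. Smooth muscle markers ran from 1816 to 1939 and from 939 to 1244 CPM, with 9 of 12 called lower and the others lower but not called. Summed markers of enteric neurons (483 to 572 against 256 to 327 CPM) and of enteric glia and Schwann precursors (194 to 226 against 91.1 to 137 CPM) were also lower, with 6 of 8 and 5 of 7 called lower. Of 8 macrophage markers 7 were called higher and the other was higher but not called, and their sum went from 369 to 447 CPM up to 580 to 815 CPM. Endothelial markers, at 762 to 904 and 842 to 967 CPM, had 1 of 12 called higher, and pericyte markers, at 1046 to 1171 and 984 to 1063 CPM, 1 of 7 called lower. Fibroblast-like mesenchyme (2633 to 2737 against 2219 to 2488 CPM, 3 of 9 lower), mesothelium (455 to 654 against 426 to 461 CPM, 2 of 6 lower), erythroid cells (187 to 205 against 156 to 171 CPM, 2 of 5 lower) and skeletal muscle (23.7 to 107 against 85.4 to 223 CPM, 2 of 6 tested higher) completed the set. In no list was a marker at 0 in all libraries. The part of these shifts in the laminin values was not tested.

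The promoters of 2 chains are shown because Lamb3 is the chain whose call the comparison turns on and Lama5 is an abundant chain with a contrasting sequence. They come from RefSeq on GRCm38.p6, the assembly behind mm10, read in the direction of the gene. RefSeq windows were matched for Lama2, Lama5, Lamb1, Lamb2 and Lamb3. Lamb3 (plus strand) has windows at a pair of starts that lie 249 bases apart. The stretch before its upstream start is chr1:193301744-193301992, the motif of its downstream window with 10 bases on each side is chr1:193302066-193302091, and the Lama5 stretch (minus strand) is chr2:180225860-180226109. Capitals mark the TEAD core GGAATG, the sequence bound by the DNA-binding partners of YAP, and the GC box GGGCGG of the Sp1 and KLF factors, each on either strand.

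Lamb3 before the upstream start: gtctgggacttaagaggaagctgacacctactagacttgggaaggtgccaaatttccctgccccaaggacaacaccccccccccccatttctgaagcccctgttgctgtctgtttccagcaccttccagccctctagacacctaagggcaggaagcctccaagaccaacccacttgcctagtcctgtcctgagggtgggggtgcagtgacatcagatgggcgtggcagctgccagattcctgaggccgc
Lamb3 around the downstream motif: ggggaccccaCATTCCcagggagctc
Lama5 before the start: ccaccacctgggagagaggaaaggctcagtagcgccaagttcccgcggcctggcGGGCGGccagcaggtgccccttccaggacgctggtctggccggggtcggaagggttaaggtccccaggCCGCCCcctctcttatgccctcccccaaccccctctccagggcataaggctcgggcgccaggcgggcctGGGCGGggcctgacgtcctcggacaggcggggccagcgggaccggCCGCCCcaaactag

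The downstream Lamb3 window held 1 TEAD core, in a stretch that overlaps an exon of Lamb3 in GENCODE M21. In that annotation the gene begins at 193207699, before both starts. There were 0 cores in the upstream Lamb3 window or in those of Lama2, Lama5, Lamb1 and Lamb2. The TEAD core occurred in 12.6% of 32841 promoter windows of 250 bases. The GC box occurred 4 times for Lama5 and 2 times for Lamb1, in 0 windows of Lama2, Lamb2 and Lamb3, and in 32.7% of all windows. The searched windows were 72.4% G and C for Lama5, 62% for Lamb1, 58.8% and 61.2% for the Lamb3 starts, 47.2% for Lama2 and 43.6% for Lamb2, against a median of 52.4%. Neither the AP-1 motif TGANTCA (6.75% of all windows) nor the TATA box TATAAA (12.4%) was found in these windows on either strand. Such matches describe letters and not binding.

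In wild type stomach the widely expressed beta and gamma chains stood highest. The joined locus of Lamb2 was at 70.6 ± 6.91 FPKM (SD, n = 4), a value that includes Usp19, Lamb1 at 66.2 ± 3.99 and Lamc1 at 53.9 ± 4.98. Lama4, a chain of vessel and mesenchymal basement membranes, followed at 32.5 ± 2.25 and Lama5, the main alpha chain under many epithelia, at 24.3 ± 6.21. Lama2, a chain of muscle and Schwann cell basement membranes, was at 9.72 ± 1.88, Lama1, an alpha chain of early embryonic basement membranes, at 8.31 ± 2.17 and Lamb3 at 8.27 ± 1.12. Lama3, which joins Lamb3 in the laminin that anchors stratified epithelium through hemidesmosomes, was lowest at 1.29 ± 0.264. Library ranges of neighbours in this order overlapped for Lamb2 and Lamb1, for Lama4 and Lama5, for Lama2 and Lama1, and for Lama1 and Lamb3. They were separate between Lamb1 and Lamc1, between Lamc1 and Lama4, between Lama5 and Lama2, and between Lamb3 and Lama3.

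In YAP5SA stomach the order was Lamb2 (71.8 ± 4.99 FPKM, with Usp19), Lamb1 (64.4 ± 3.74), Lamc1 (60.0 ± 2.47), Lama5 (31.7 ± 4.28), Lama4 (27.6 ± 3.40), Lama1 (11.2 ± 2.86), Lama2 (7.67 ± 0.747), Lamb3 (5.31 ± 1.39) and Lama3 (1.13 ± 0.353). Lama5 and Lama4 had changed places, as had Lama1 and Lama2, and in both pairs the YAP5SA ranges overlapped. Those of Lamb2 and Lamb1, of Lamb1 and Lamc1, and of Lama2 and Lamb3 overlapped too.

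**Figure D1:**
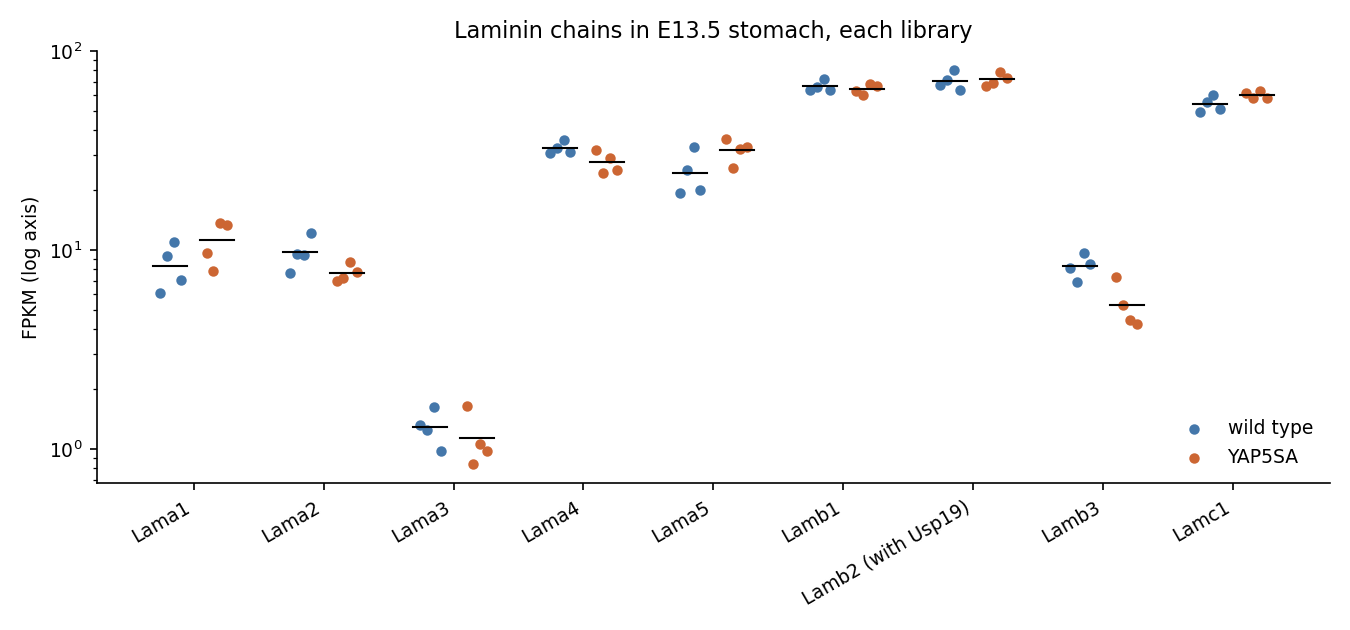
FPKM of each laminin chain (log axis) in every library, wild type in blue and YAP5SA in orange, with a black line at the mean of 4 libraries. The chains span from about 1.29 FPKM for Lama3 to 70.6 FPKM for the Lamb2 locus in wild type, and the YAP5SA points lie mostly within or beside the wild type points of the same chain.

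Of the 9 chains, 1 fell and 0 rose at an adjusted p under 0.05 by edgeR, while over all tested loci 18.9% were called, 9.06% higher and 9.85% lower. The median log2 fold change of the chains, YAP5SA minus wild type, was −0.05, beside −0.01 over all tested loci. A share of 1 in 9 lies near this background. The genotypes overlapped in CPM for all 9 chains, whereas they were separate at 23.3% of all tested loci. At an unadjusted p under 0.05, 4 chains passed (Lamb3, Lama4, Lama2 and Lama5), against 31.3% of all loci. For the 8 other chains the size and error of the difference are given below, since a p that misses the threshold does not show that the genotypes are alike. Libraries that share a replicate number deviated together, and with the replicate number as a block 3 chains were lower, Lamb3, Lama2 and Lama4, against 20.8% of all loci called in that fit.

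The alpha chains differed in direction, and none passed the threshold in the fit without the block. Lama4 (chromosome 10, 38965515 to 39133895, mm10, plus strand, 38 exons in its longest coding transcript) stood at 184, 195, 212 and 185 CPM in wild type replicates 1 to 4 and at 187, 145, 172 and 150 CPM in YAP5SA. The YAP5SA libraries 2, 3 and 4 were below all wild type libraries, and YAP5SA replicate 1 lay among them. The log2 fold change was −0.25 ± 0.08 (SE, adjusted p = 0.066), and −0.25 ± 0.07 with the block (adjusted p = 0.044). Without YAP5SA replicate 1 the adjusted p was 0.016. Lama2 (chromosome 10, 26981285 to 27616942, mm10, minus strand, 65 exons) was at 74.5, 93.4, 91.5 and 119 CPM in wild type against 67.2, 70.2, 83.8 and 75.0 CPM in YAP5SA. Its groups overlapped through wild type replicate 1, the lowest of its group, and YAP5SA replicates 3 and 4. The log2 fold change was −0.35 ± 0.12 (adjusted p = 0.076), and −0.34 ± 0.09 with the block (adjusted p = 0.036). Without wild type replicate 1 it was −0.44 (adjusted p = 0.02). As given above, Lama4 is a chain of vessel and mesenchymal basement membranes and Lama2 one of muscle and Schwann cell basement membranes. Beside these chains, markers were called lower for smooth muscle (9 of 12), enteric glia and Schwann precursors (5 of 7), fibroblast-like mesenchyme (3 of 9) and pericytes (1 of 7). Endothelial markers had 1 of 12 called higher and 0 lower. Over all tested loci 9.85% were called lower and 9.06% higher. The part of these cell types in the values was not tested.

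Lama5 and Lama1 had positive differences that missed the threshold. Lama5 (chromosome 2, 180171557 to 180226002, mm10, minus strand, 79 exons) was at 234, 299, 385 and 241 CPM in wild type against 427, 312, 377 and 385 CPM in YAP5SA. All 4 YAP5SA libraries were above 3 of the wild type libraries, and wild type replicate 3 lay within the YAP5SA range. The log2 fold change was 0.37 ± 0.15 (adjusted p = 0.12), and 0.55 (adjusted p = 0.013) without wild type replicate 3. Lama1 (chromosome 17, 67697265 to 67822645, mm10, plus strand, 63 exons) was at 57.8, 88.6, 104 and 67.0 CPM in wild type against 91.5, 74.5, 129 and 127 CPM in YAP5SA. YAP5SA replicates 3 and 4 exceeded all wild type libraries and the other two lay among them, with a log2 fold change of 0.41 ± 0.21 (adjusted p = 0.21). For both chains the summed epithelial markers were lower in YAP5SA, as given above.

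Lama3 (chromosome 18, 12334024 to 12583012, mm10, plus strand, 75 exons) was the chain with the fewest fragments, 63 to 141 per library. Its level was 13.7, 12.9, 16.8 and 10.1 CPM in wild type against 16.9, 8.70, 10.9 and 10.1 CPM in YAP5SA. YAP5SA replicate 1 lay just above all wild type libraries and replicate 3 near the lowest of them. YAP5SA replicates 2 and 4 lay below all wild type libraries, replicate 4 by less than the digits given show. The log2 fold change was −0.20 ± 0.23 (adjusted p = 0.63), an error that is larger than the difference.

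**Figure D2:**
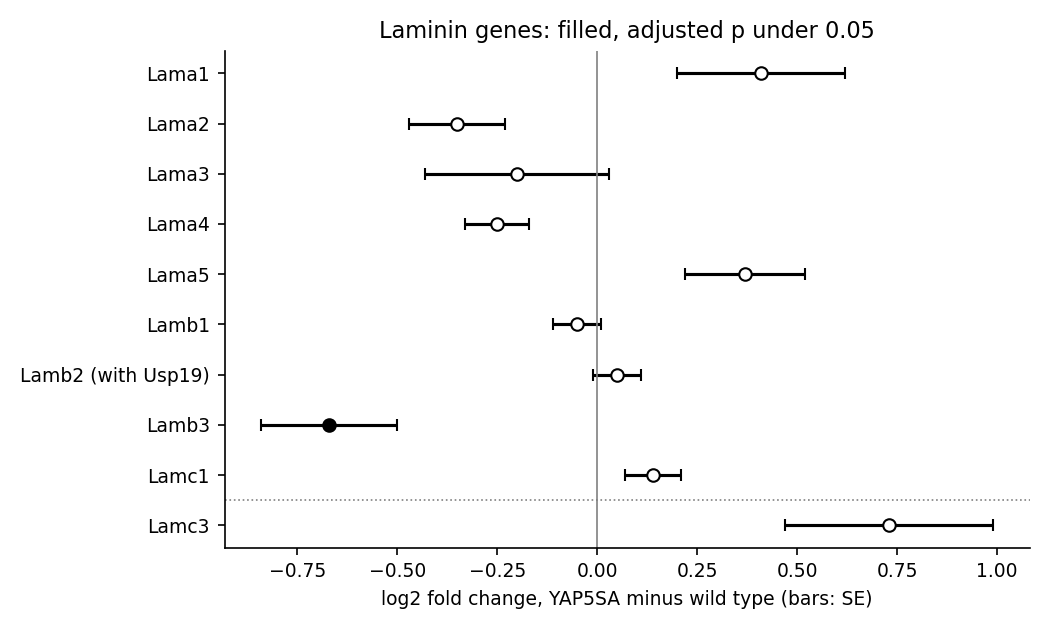
Log2 fold change, YAP5SA minus wild type, of the 9 laminin chains and, below the dotted line, of Lamc3; bars are standard errors from edgeR with 4 libraries a group, and filled points have an adjusted p under 0.05. Lamb3 at −0.67 is the filled point.

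The beta chains Lamb1 and Lamb2 and the gamma chain Lamc1, which most laminin trimers share, showed small differences. Lamb1 (chromosome 12, 31265117 to 31330540, mm10, plus strand, 33 exons) was at 366, 376, 414 and 364 CPM in wild type against 357, 342, 390 and 380 CPM in YAP5SA, and the groups overlapped. Its log2 fold change was −0.05 ± 0.06 (adjusted p = 0.64). The joined locus of Lamb2 and Usp19 (chromosome 9, 108479862 to 108502414, mm10; Lamb2 on the plus strand with 33 exons) was at 389, 395, 445 and 391 CPM in wild type against 408, 408, 440 and 416 CPM in YAP5SA. Its log2 fold change was 0.05 ± 0.06 (adjusted p = 0.66), and the fragments of Lamb2 within it cannot be separated from those of Usp19. Lamc1 (chromosome 1, 153218922 to 153332786, mm10, minus strand, 28 exons) was at 373, 421, 459 and 387 CPM in wild type against 463, 436, 472 and 439 CPM in YAP5SA. YAP5SA replicates 1 and 3 exceeded all wild type libraries and the log2 fold change was 0.14 ± 0.07 (adjusted p = 0.19). These loci were densely covered, at 0.266, 0.222 and 0.370 fragments per exonic base for Lamb1, the Lamb2 locus and Lamc1, as were Lama5 at 0.209 and Lama4 at 0.104. At 4546 loci with 0.1 to 0.3 fragments per base, counts followed depth within genotypes with a median log-log slope of 0.73, and at 584 loci with 0.3 to 0.7 with a slope of 0.41, against 1.36 at 7643 loci below 0.1. Every YAP5SA library was deeper than every wild type library. Whether depth shifted the differences of these chains, in either direction, was not tested.

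Lamb3 was the chain that fell. It encodes the beta chain that joins Lama3 in a laminin made by epithelia (chromosome 1, 193301994 to 193343934, mm10, plus strand, 27 exons). Wild type libraries held 31.8, 27.2, 37.3 and 33.6 CPM and YAP5SA libraries 27.4, 20.7, 16.9 and 16.4 CPM. YAP5SA replicates 2, 3 and 4 were below all wild type libraries, and YAP5SA replicate 1, at 27.4 CPM, lay just above wild type replicate 2. The means were 32.5 ± 4.21 and 20.3 ± 5.11 CPM (SD, n = 4), and the log2 fold change was −0.67 ± 0.17 (adjusted p = 0.019), a level of 0.63 times wild type. The adjusted p rose past 0.05 when wild type replicate 3 was left out (−0.59, adjusted p = 0.06), and likewise without YAP5SA replicate 2 (−0.66, adjusted p = 0.05), 3 (−0.59, adjusted p = 0.057) or 4 (−0.56, adjusted p = 0.055). Beside it, the 19 epithelial markers had a median log2 fold change of −0.96, with Cdh1, the epithelial cadherin, falling by 0.72 ± 0.15 (adjusted p = 0.0061), and the part of this in the Lamb3 value was not tested.

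Lamc3, a laminin gene outside the 9, had few fragments (19 to 67 per library) and was at 3.97, 4.41, 4.80 and 3.00 CPM in wild type against 7.19, 4.56, 6.21 and 8.99 CPM in YAP5SA (0.73 ± 0.26, adjusted p = 0.079). It passed the threshold in 1 of the 8 fits that left out a library.

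Ratios of chains within a library were tested by two-sided exact permutation over the 70 regroupings of 4 against 4 libraries, whose smallest p is 0.0286. These ratios used CPM, which is not divided by length, so they compare genotypes and do not give the relative level of the chains. The ratio of Lama3 to Lamb3 differed by 0.47 on the log2 scale (−1.26 ± 0.29 in wild type, −0.79 ± 0.28 in YAP5SA, SD, n = 4, exact permutation p = 0.114, adjusted over 4 ratios 0.229). The ratio of Lamb1 to the Lamb2 locus went from −0.09 ± 0.01 to −0.19 ± 0.05, with separate groups and the smallest p that the design allows, 0.0286, which became 0.114 after exact permutation tests were adjusted over the 4 ratios. Computed from FPKM with 0.1 added, this ratio differed by −0.07 (exact permutation p adjusted over 4 ratios 0.4), against −0.10 from CPM. With Usp19 in the denominator this ratio does not measure the beta chains alone. Lama1 to Lama5 (difference 0.02, exact permutation p = 0.971) and Lama2 to Lama4 (difference −0.08, exact permutation p = 0.743) differed by less than their spread between libraries.

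**Figure D3:**
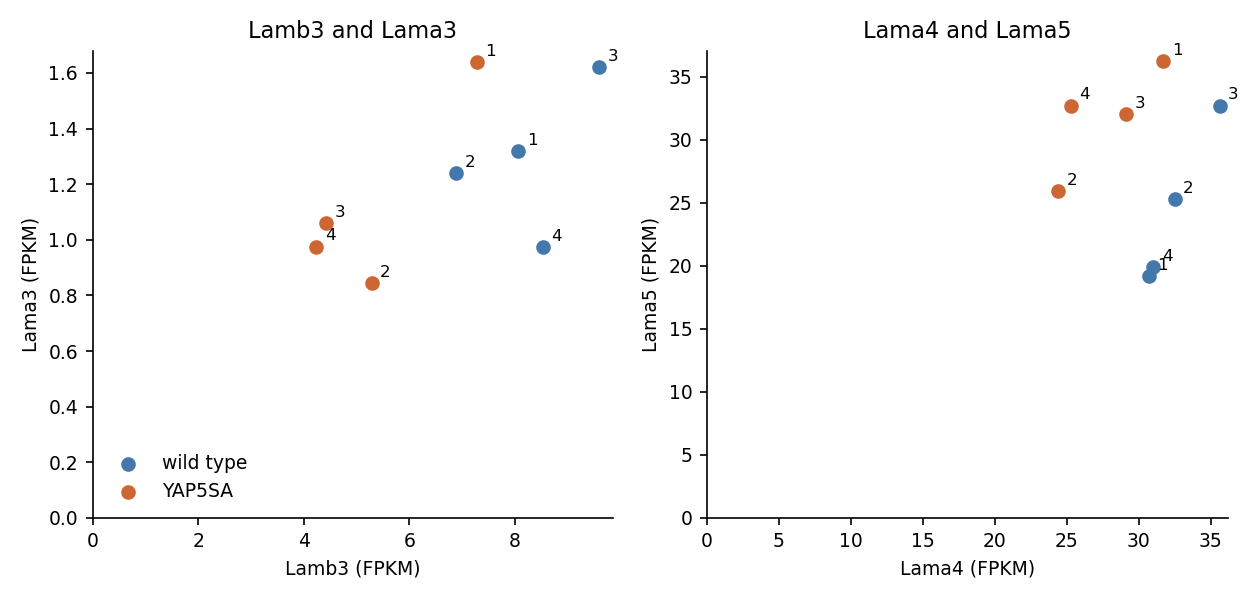
FPKM of Lama3 against Lamb3 (left) and of Lama5 against Lama4 (right); each point is a library, numbered by replicate, wild type in blue and YAP5SA in orange. On the left YAP5SA replicates 2, 3 and 4 lie to the left of all wild type libraries in Lamb3 (4.24 to 5.29 against 6.89 to 9.60 FPKM). In Lama3, YAP5SA replicate 2 lies below all wild type libraries and replicates 3 and 4 lie within their range.

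Composition of the alpha chains was described as each chain's share of their summed FPKM, a measure added after the single chains were seen and given without a test. The summed level was 76.1 ± 10.8 FPKM in wild type and 79.3 ± 9.07 FPKM in YAP5SA (SD, n = 4). Lama4 held 39.5% to 47.3% of it in wild type and 31.6% to 36.8% in YAP5SA. Lama5 held 28% to 36.2% and 37.9% to 42%. The genotypes did not overlap in either share, although they overlapped in the level of each gene. In CPM the genotypes were separate at 23.3% of all tested loci, and no such background was computed for shares. Lama1 held 9.34% to 12% and 11.2% to 16.7%, Lama2 10.4% to 17.2% and 8.1% to 11%, and Lama3 1.37% to 2.03% and 1.21% to 1.91%, all with overlap. Shares of a sum depend on each other, so these are not separate results.

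**Figure D4:**
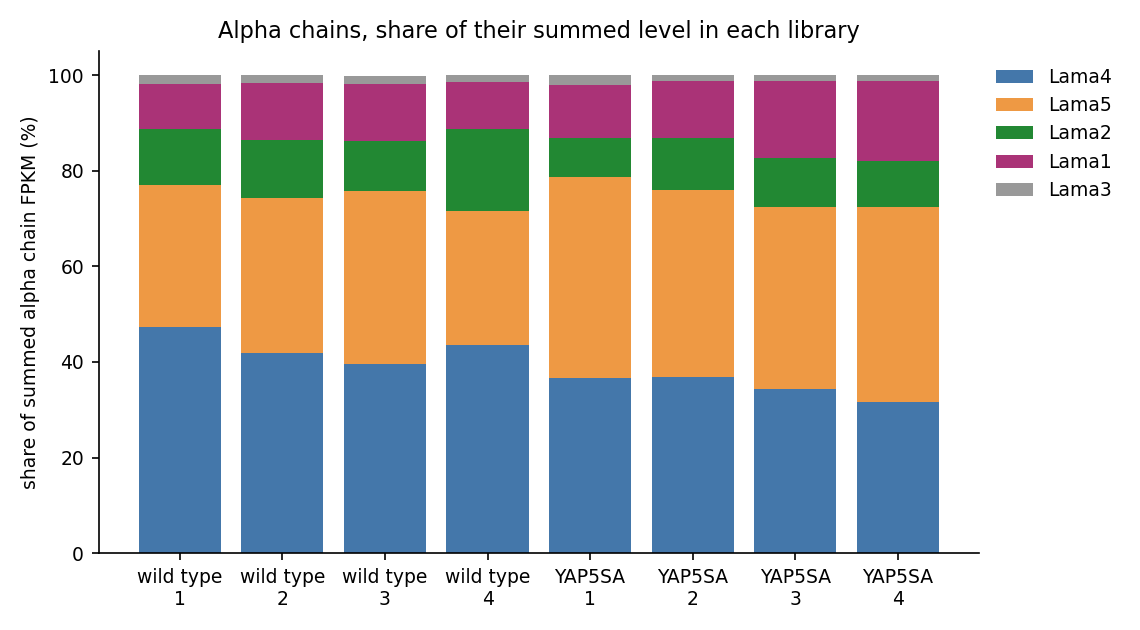
Stacked share (percent of summed FPKM) of the 5 alpha chains in each of the 8 libraries. Lama4 is the largest share in every wild type library (39.5% to 47.3%) and Lama5 in every YAP5SA library (37.9% to 42%).

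Of 26 tested partners of the laminins in the basement membrane, 6 rose, 2 fell and 18 were not called, with a median log2 fold change of 0.18. Over all tested loci 9.06% were higher and 9.85% lower, with a median of −0.01, and the partner lists below have the same background. The minor type IV collagen genes Col4a4 and Col4a3 rose by 3.81 ± 0.27 (adjusted p = 2.1e-05) and 4.12 ± 0.40 (adjusted p = 0.00015) from low levels of 3.39 and 1.35 CPM. Egfl6, a basement membrane protein that binds integrins, rose by 1.44 ± 0.12 from 46.2 ± 8.19 to 126 ± 14.2 CPM. Nid2, a nidogen that links laminin to type IV collagen, rose by 0.56 ± 0.10 from 246 ± 40.5 to 363 ± 19.5 CPM, and Tinagl1, a laminin-binding matrix protein, by 1.06 ± 0.19. Smoc1, a calcium-binding matrix protein, fell by 0.81 ± 0.14. Among the partners not called, Nid1 had a log2 fold change of 0.14 ± 0.07, perlecan (Hspg2) 0.22 ± 0.16, agrin (Agrn) −0.03 ± 0.05, Col4a1 −0.15 ± 0.05 and Col4a2 0.01 ± 0.06.

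Of 16 tested receptors of laminin, 2 rose, 2 fell and 12 were not called (median 0.02), while 18.9% of all tested loci were called. Among those not called, the integrin alpha subunit gene Itga7, whose product binds laminin on muscle cells, had a log2 fold change of −0.85 ± 0.30 (adjusted p = 0.071). The others included the integrin beta subunit Itgb1 −0.11 ± 0.05, the alpha subunits Itga6 −0.18 ± 0.09 and Itga3 0.28 ± 0.13, and dystroglycan (Dag1) 0.02 ± 0.07. Itgb4, which pairs with Itga6 in hemidesmosomes and binds the trimer that holds Lamb3, was at 31.9 and 23.7 CPM (−0.42 ± 0.27, adjusted p = 0.32). The syndecan genes Sdc4 and Sdc1, encoding cell-surface proteoglycans, fell, with log2 fold changes of −0.52 ± 0.10 and −0.16 ± 0.05, and the galectin gene Lgals3 and the joined locus of Itga1 and Pelo rose by 1.21 ± 0.37 and 0.38 ± 0.11. With the replicate block, Sdc1 (adjusted p = 0.086) and Itga1 (adjusted p = 0.07) lost their calls, and Itga1 lost it in 5 of the 8 fits that left out a library. Lgals3 passed the threshold in 7 of the 11 other settings and in 1 of the 8 fits without a library. Sdc1 passed in 3 of the 11 settings and in 0 of the 8, so its call rests on the choice of fit.

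In the dystrophin-glycoprotein complex, which ties laminin through dystroglycan to the cytoskeleton, 1 of 12 rose and 2 fell (median 0.05). Sspn, encoding sarcospan, rose by 0.32 ± 0.08. The dystrobrevin gene Dtna fell by 1.32 ± 0.21, from 61.4 ± 9.41 to 24.5 ± 7.53 CPM, and the syntrophin gene Sntb1 fell by 0.83 ± 0.11. Among 5 tested genes of the netrin family, relatives of the laminins, Ntn4 and the joined locus that holds Ntng2 rose by 0.88 ± 0.22 and 1.31 ± 0.16 and Ntn1 fell by 0.54 ± 0.08. The Ntn4 call was lost in 5 of the 8 fits that left out a library.

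Genes of hemidesmosomes and of the basal layer in which they form went both ways, with 1 of 7 higher and 2 lower (median −0.27). Krt5 and Trp63, a keratin and a transcription factor of basal cells of stratified epithelium, which in the stomach line the forestomach, fell, with log2 fold changes of −1.87 ± 0.41 and −1.73 ± 0.31. The joined locus of Krt14 and Krt17 rose by 0.96 ± 0.15, and its fragments cannot be assigned to either keratin. Col17a1, a hemidesmosome collagen, was at 18.3 and 12.8 CPM (−0.51 ± 0.23, adjusted p = 0.16), and the linker genes Dst and Plec had log2 fold changes of 0.06 ± 0.14 and 0.10 ± 0.10. As for Lamb3, the epithelial markers moved down beside these genes, and their part was not tested.

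**Figure D5:**
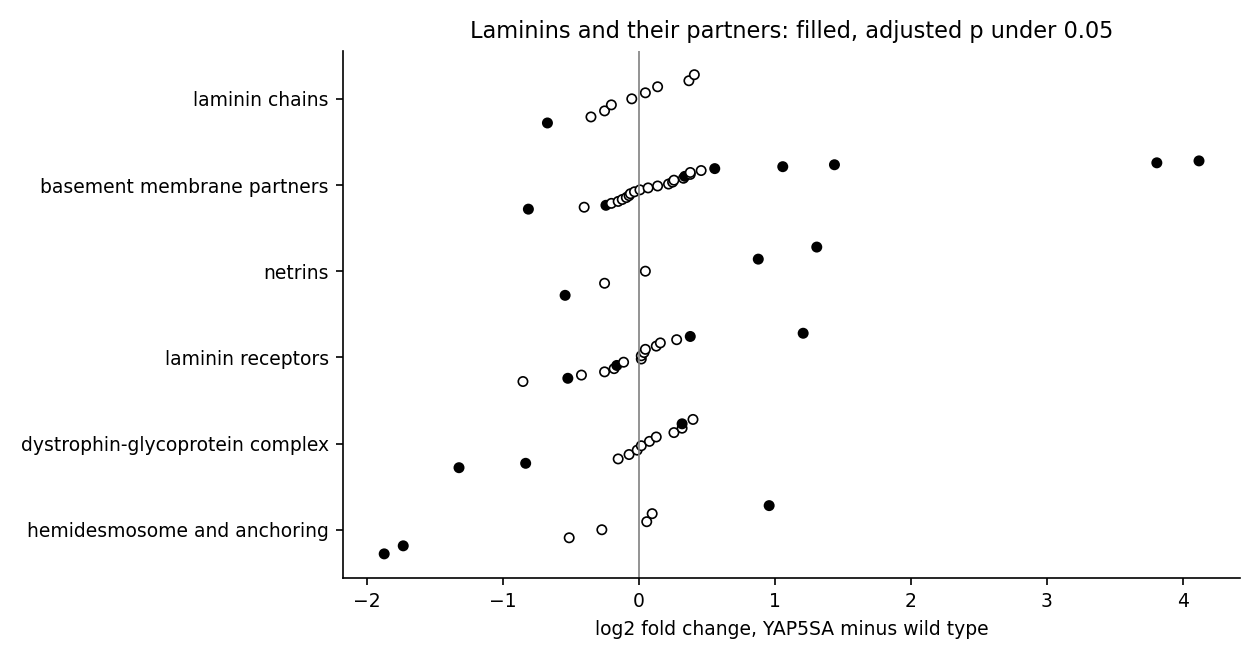
Log2 fold change, YAP5SA minus wild type, of every tested gene in the laminin list and in 5 lists of partner genes, 1 point a gene, filled where the adjusted p was under 0.05. The laminin chains lie between −0.67 and 0.41, while Col4a4 and Col4a3 among the basement membrane partners lie at 3.81 and 4.12.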

How the data were processed

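The tools named are Cufflinks 2.2.1, Cuffdiff and TopHat2 2.0.9, and the build mm10, per the submitters' processing notes; their roles, the annotation, strand use and duplicate treatment are not given in the sources used here. The deposited table gives estimated counts of fragments, of which 10.9% to 11.3% in a library are not whole and were rounded, and FPKM computed by the authors. The table numbers libraries from 0, and its number 0 was taken as replicate 1. Loci without a gene name (3582) were left out. Tests used edgeR 4.0.16 (quasi-likelihood, robust, TMM, filterByExpr, genotype as the only term) in R 4.3.3 over 14574 loci with Benjamini-Hochberg adjustment, and SE is the fold change over the root of the F value. The step was tested on simulated data.

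Same-numbered libraries deviated together (correlations 0.22, 0.14, 0.14 and 0.21), so blocked values stand where they change a call; the labels do not say what the numbers share. Replicates differed by more than counting error in every pair, so none was a duplicate. Alternatives were RLE and upper-quartile factors, other filters, loci without a name, no robust estimation, DESeq2 1.42.0, limma 3.58.1 (voom, and log2(FPKM + 0.1) or log2(FPKM + 1)), the replicate block and leaving out each library. Ratios used log2(CPM + 0.5).

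The members and lists were chosen with earlier results of these data known. All 9 chains and Lamc3 were named; some results are not reported here; each partner list names up to 6 called genes with the smallest p, and members not called were chosen after their values were seen. Locus starts are 1-based; exons are from GENCODE M21.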

Additional observations from a re-analysis of the deposited data

Results flagged for a closer look

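Among the groups of 4 libraries checked for laminin genes (22 in all), 1 value stood far from the others of its group: the joined locus of Lamb2 and Usp19 was at 445 CPM in wild type replicate 3, with the other wild type libraries at 389, 395 and 391 CPM. Chance marks about 1 in 20 such groups. In the same library Lama1, Lama3, Lama4, Lama5, Lamb1, Lamb3 and Lamc1 were also the highest of their group.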

How the results depend on the processing

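Lamb3 was lower and past the threshold in all 11 alternatives that kept every library (adjusted p 0.004 to 0.032, edgeR, DESeq2 or limma), and in 4 of the 8 fits without a library, where its log2 fold change ran from −0.84 to −0.56. With the replicate block 3 chains were lower, adding Lama2 (−0.34, adjusted p = 0.036) and Lama4 (−0.25, adjusted p = 0.044). Leaving out a library gave 0 to 2 chains lower and 0 to 1 higher, the latter Lama5 without wild type replicate 3. In those fits Lama2 ran from −0.44 to −0.23, Lama4 from −0.31 to −0.17 and Lama5 from 0.29 to 0.55. Lamb1 ran from −0.08 to 0.00, reaching 0.00 without wild type replicate 3 or YAP5SA replicate 2, where its sign turned. No other chain changed sign in any alternative. Partner genes called higher numbered 9 (without wild type replicate 2) to 14 and lower 8 to 10 without a library, and the loci called 2032 to 2805. The cause of these shifts was not tested; fits without a library have fewer samples. The block changed no other call of these chains. Lama3 and Lamc3 had few fragments, and whether dense coverage shifted the differences of other chains, in either direction, was not tested.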

Other observations

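Among 173 genes of the partner and marker lists, the profiles over the 8 libraries nearest to Lamb3, by the root mean square difference of log2 values centred on the wild type mean, were Ntn1 (0.17) and Myocd (0.19), against a median of 0.54. Ntn1 encodes a netrin and Myocd a coactivator of smooth muscle genes. The measure follows the size of the genotype difference as well as the libraries, so it gives likeness in these 8 libraries and nothing on shared cells.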
